A study of Mus musculus with 4 samples.

Results

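Integrins and laminins are the receptors and ligands by which cells hold on to their basement membranes. Their genes were found by name in the array design, as Itga (integrin alpha subunits), Itgb (integrin beta subunits) and Lama, Lamb or Lamc (laminin chains). Described here are 36 such genes, 18 of Itga, 8 of Itgb and 10 of laminins. A gene entered the test if all 4 control channels or all 4 treated channels showed its probe well above background. This held for 35 of the 36 genes, out of 22461 genes tested among 29924 gene names. Itgae, an alpha subunit of intraepithelial T cells, was well above background in neither channel of any array and has no value. Itgad, a leukocyte alpha subunit, was the member closest to this limit, with 4 of 4 treated but 2 of 4 control channels above background.

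All ureters came from wildtype NMRI mouse embryos at E12.5 whose sex was not determined, and were kept as explants for 18 h. The treated group received IWP-2 at 10 µM, and the control group the solvent DMSO at 2 parts per 1000. IWP-2 inhibits Porcupine, the acyltransferase that WNT ligands need before they can be secreted. It was added to the medium of the whole explant and not directed at a single tissue. Each of the 4 arrays compared a pool of treated ureters in one colour with a pool of control ureters in the other, with the treated RNA in red on arrays 1 and 3 and in green on arrays 2 and 4. The replicate number names an array. Nothing in the labels says that the pools came from separate litters, so the p-values measure the spread between these arrays, which may be technical. All 4 arrays lay on 1 slide and were scanned together.

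An integrin is a dimer of an alpha and a beta subunit in the cell membrane. The alpha subunit largely sets the ligand: Itga3, Itga6 and Itga7 bind laminins, Itga1, Itga2, Itga10 and Itga11 bind collagens, and Itga5, Itga8, Itgav and Itga2b bind proteins with the short motif RGD. A laminin is a trimer of an alpha, a beta and a gamma chain and forms the first sheet of a basement membrane. In the developing kidney and ureter, laminin lies at the border between the epithelium and the mesenchyme.

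An array measures the stretch of the transcript that its 60-base probe matches, so the probe sequences of the members that the results turn on are given here. Positions are those of the array design on the mm9 build. For probes that lie within 1 block of the genome, 30 of the 60 bases are shown. They are those of the genes with the largest rise and the largest fall, Itga8 (chr2:12028462-12028521, minus strand) and Lamc3 (chr2:31801996-31802055, plus strand).
Itga8: catacattggtattctcgaggagtctatct
Lamc3: ccccaggtcccagaggaactgattgtgatt

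Of the 50 probes of these genes, 7 match pieces that lie further apart in the genome than 60 bases and so span an intron. Shown in full are those of Itga1 (chr13:115756765-115758419, minus strand), Itgb1 (chr8:131250081-131255976, plus strand) and the dimmer probe of Itga4 (chr2:79153985-79155115, plus strand), since they match spliced RNA.
Itga1: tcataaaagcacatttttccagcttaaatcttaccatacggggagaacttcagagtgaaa
Itgb1: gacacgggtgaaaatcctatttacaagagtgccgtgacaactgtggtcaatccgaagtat
Itga4: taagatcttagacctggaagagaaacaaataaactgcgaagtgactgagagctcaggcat

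A pair of probes holds simple repeats, which are in capitals here with their flanks. The dimmer probe of Itga6 (chr2:71694756-71694815, plus strand) has a run of 17 bases of repeated TTG, and the brightest probe of Itgam (chr7:135261755-135261814, plus strand) begins with a run of 20 bases of repeated CA. Runs of at least 17 bases were present in 0.528% of the 39429 gene probes of the array, and runs of at least 20 bases in 0.406%. The bright probe of Itga6 (chr2:71690633-71690692, plus strand), from which the gene's value was taken, has no such run.
Itga6, dimmer probe: ggaggtcTTGTTGTTGTTGTTGTTctgacc
Itga6, brightest probe: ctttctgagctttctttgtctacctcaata
Itgam, brightest probe: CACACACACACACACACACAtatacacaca

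To see how these genes respond to IWP-2, the log2 ratio of treated over control was tested for all genes with limma, and adjusted p denotes the p-value after Benjamini-Hochberg correction over the 22461 genes (threshold 0.05). Of the 35 members, 15 were higher, 6 were lower and 14 did not pass the test. Over all genes, 18.1% were higher and 15.0% were lower. Thus 60% of the members were called. The same sign on all 4 arrays was found for 21 of the 35 members, against 43.4% of all genes. For 17 members the 4 treated pools did not overlap the 4 control pools in normalised intensity, against 22.4% of all genes. The changes were small: no member reached 2-fold, and the median size among called members was 0.39 on the log2 scale, against 0.25 for all called genes. Between arrays, the ratios of a member varied with a median SD of 0.11, the same as for all genes.

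The classes differed in their counts. Of the 17 alpha subunits measured, 5 were lower and 4 higher, with a median log2 ratio of 0.00. Of the 8 beta subunits, 0 were lower and 5 higher, with a median of 0.17. Of the 10 laminin chains, 1 was lower and 6 were higher, with a median of 0.26. The median of all 35 members was 0.12, at 0.07, 0.16, 0.11 and 0.14 on arrays 1 to 4. That of all genes was 0.00, where the normalisation centres the ratios of each array. Whether the classes differ from each other was not tested.

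**Figure D1:**
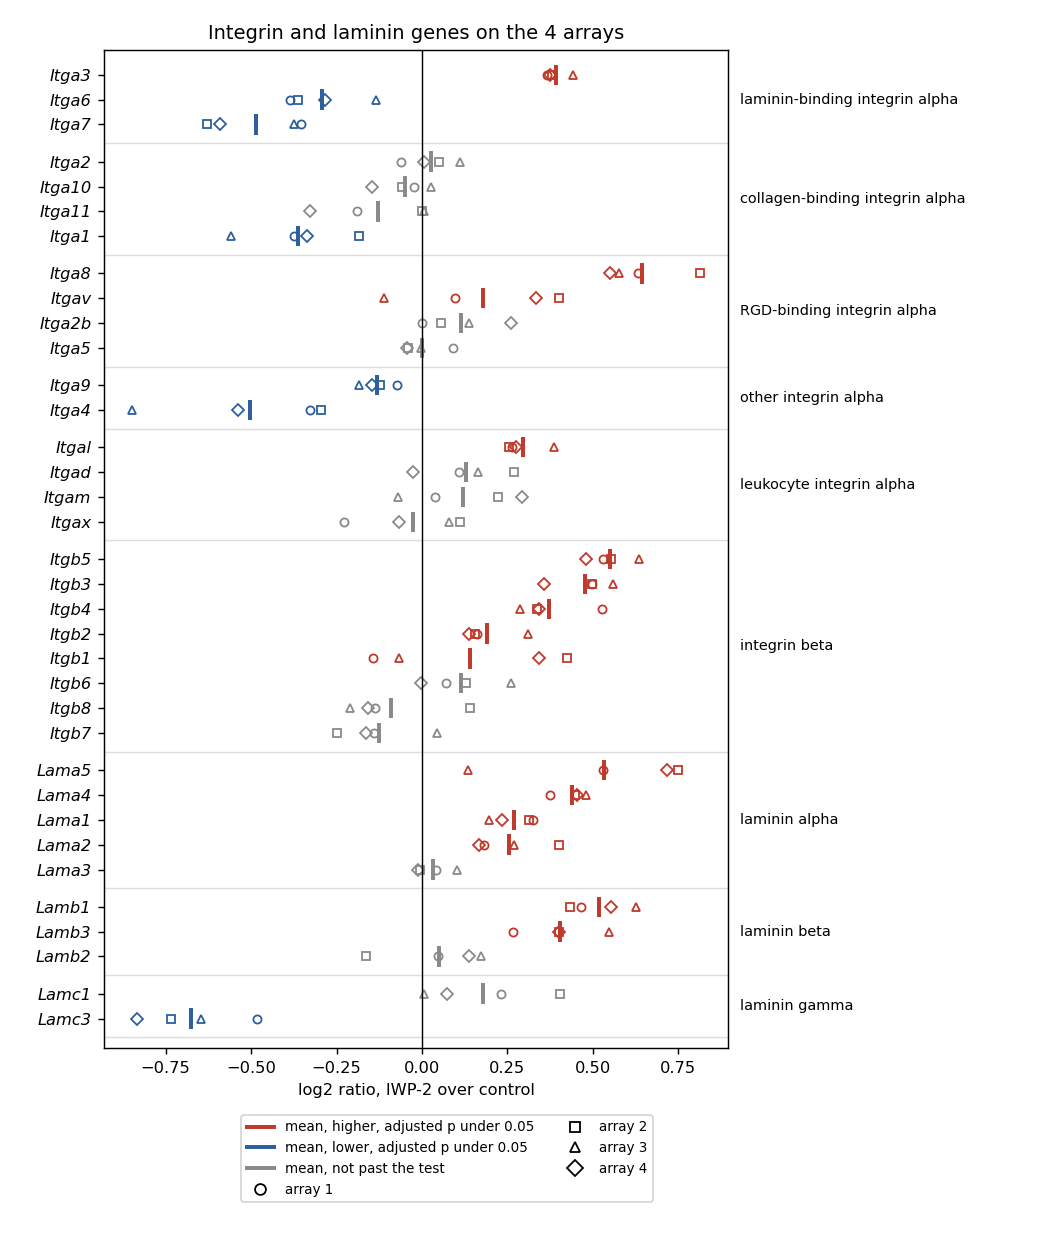
Log2 ratio of IWP-2 over control (horizontal axis) for the 35 genes measured, grouped by subunit class, with 1 symbol per array and a bar at the mean of the 4 arrays. Red marks the 15 genes that were higher, blue the 6 that were lower and grey the 14 not past the test; the blue genes are 5 alpha subunits and Lamc3, and the symbols of Itgb1 and Itgav lie on both sides of 0.

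Among the laminin alpha chains, which carry the main binding sites for integrins, 4 of 5 were higher. Lama5, the main alpha chain of the basement membrane of epithelia in the developing urinary tract, rose by 0.53 ± 0.28 (SD, n = 4 arrays, as for all values that follow) with an adjusted p = 0.00224. Its ratios were 0.53, 0.75, 0.13 and 0.72 on arrays 1 to 4. On array 3 the ratio was lowest and the control pool highest, at a normalised log2 intensity of 14.85 against 14.26, 14.62 and 14.27 in the other control pools, and the groups overlapped. Lama4, a chain of vessel walls and mesenchyme, rose by 0.44 ± 0.04 (adjusted p = 0.000713) and was the most even of the laminins, between 0.37 and 0.48 on the 4 arrays. Lama1, the early embryonic alpha chain, rose by 0.27 ± 0.06 (adjusted p = 0.00522), and Lama2, the chain of muscle and of mesenchymal cells, by 0.25 ± 0.11 (adjusted p = 0.0116). For Lama1, Lama2 and Lama4 all treated pools lay above all control pools. Lama3, the alpha chain of the laminin of stratified epithelia, was at 0.03 ± 0.05 with a 95% interval of the change from -0.06 to 0.13. A dimmer probe of Lama3 was at 0.17 ± 0.35, and with the mean of both probes the gene was at 0.10 (adjusted p = 0.177).

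Of the beta chains, Lamb1, the partner of most embryonic laminins, rose by 0.52 ± 0.09 (adjusted p = 0.00068). Its ratios were 0.46, 0.43, 0.63 and 0.55, and the control pools, at 16.21 to 16.43, lay apart from the treated pools, at 16.74 to 16.91. Lamb3, found in the laminin of epithelial anchoring structures, rose by 0.40 ± 0.11 (adjusted p = 0.00278), with ratios from 0.27 to 0.55. Lamb2, a chain of mature basement membranes, was at 0.05 ± 0.15, with an interval from -0.09 to 0.19.

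Lamc3, a gamma chain of limited distribution, had the largest change of any member and fell, unlike the other laminin chains described. It was at 11.53, 11.47, 11.56 and 11.59 in the control pools and at 11.05, 10.73, 10.91 and 10.76 in the treated pools. The control pools were close together and the treated pools all lay below them, with a change of -0.67 ± 0.15, or 1.60-fold lower (adjusted p = 0.000247). Lamc1, the gamma chain of most laminins, had ratios of 0.23, 0.41, 0.01 and 0.07, and its mean of 0.18 ± 0.18 did not pass the test (adjusted p = 0.0879). Leaving out 1 array gave values from 0.10 (adjusted p = 0.327) without array 2 to 0.26 (adjusted p = 0.02) without array 4, and of these fits the latter alone passed the test.

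Beside the laminin chains, all 7 epithelium markers (Epcam, Cdh1, Krt8, Krt18, Krt19, Cldn4 and Cldn7) were higher, by 0.24 to 0.34. Their median was 0.22, 0.39, 0.41 and 0.29 on arrays 1 to 4. Summed intensities, here and below, were not normalised between arrays, so their ranges do not compare the pools within an array. The summed intensity of these markers ranged from 40882 to 54041 in the control pools and from 46388 to 67147 in the treated pools. Their part in the rises of the laminin chains was not tested. In RNA of whole explants, a change in the number of cells of a type and a change in RNA per cell cannot be told apart.

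**Figure D2:**
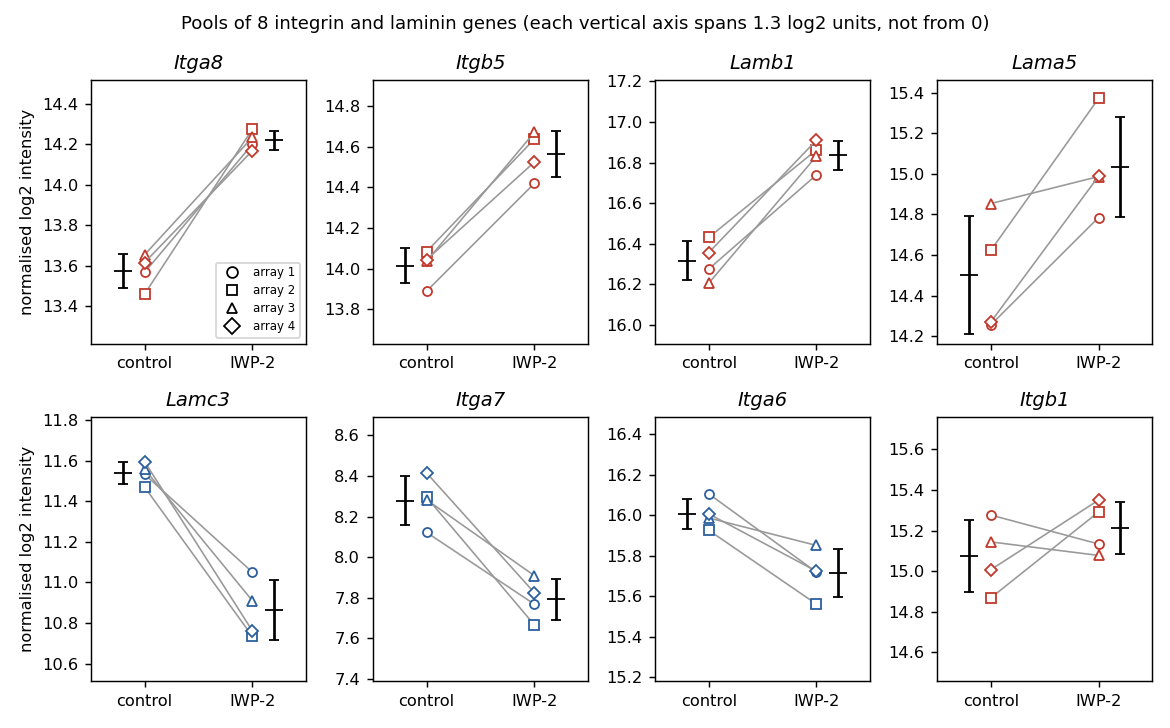
Normalised log2 intensity (vertical axis, 1.3 log2 units in each panel) of 8 genes in the control and the IWP-2 pools, with a line joining the pools of 1 array and the mean ± SD of the 4 pools beside them. The groups are apart for Itga8, Itgb5, Lamb1, Lamc3, Itga7 and Itga6, overlap for Lama5, and cross for Itgb1, whose lines rise on arrays 2 and 4 and fall on arrays 1 and 3.

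All 3 laminin-binding alpha subunits passed the test, in different directions. Itga3, the partner of Itgb1 in the main laminin receptor of epithelia, rose by 0.39 ± 0.03 (adjusted p = 0.000954), with ratios of 0.37, 0.38, 0.44 and 0.38. Itga6, the alpha subunit of hemidesmosomes and of many progenitor cells, fell by 0.29, with ratios of -0.39, -0.36, -0.14 and -0.28 (SD 0.11, adjusted p = 0.00793). Its control pools lay at 15.93 to 16.11 and its treated pools at 15.56 to 15.85. In the array design the probe used is assigned to an Ensembl transcript, and the dimmer probe to a RefSeq transcript of the gene. The dimmer probe of Itga6, which holds the TTG repeat, did not show this fall. It was at 0.26, -0.49, 0.34 and -0.06, a mean of 0.01 ± 0.38, and with the mean of both probes Itga6 was at -0.14 and no longer passed (adjusted p = 0.0995). Itga7, the laminin receptor of muscle, fell by 0.49, at ratios of -0.35, -0.63, -0.37 and -0.59 (SD 0.14, adjusted p = 0.000399). It was at 8.12 to 8.41 in the control pools and at 7.67 to 7.91 in the treated pools.

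Smooth muscle markers were measured beside Itga7. Of 7 such markers 6 were lower, with a median of -0.46, and Des was not past the test at 0.10. The median was -0.51, -0.24, -0.57 and -0.64 on arrays 1 to 4. Their summed intensity was between 7571 and 14148 in the control pools and between 4896 and 8170 in the treated pools. The part of these cells in the fall of Itga7 was not tested.

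Of the 4 collagen-binding alpha subunits 1 was lower and 0 were higher. Itga1, a collagen receptor of smooth muscle and other mesenchymal cells, fell on every array, at -0.37, -0.19, -0.56 and -0.34, with a mean of -0.36 ± 0.15 (adjusted p = 0.0031). The pools overlapped, since the control pool of array 2 was the lowest control at 8.55, level with the treated pool of array 4. A second probe of Itga1, which also spans an intron, was at -0.27 ± 0.12. The values of the other collagen-binding subunits were 0.03 for Itga2, -0.05 for Itga10 and -0.13 for Itga11. Leaving out 1 array moved Itga11 between -0.05 (adjusted p = 0.64) without array 4 and -0.21 (adjusted p = 0.0416) without array 2.

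As the treatment is directed at WNT signalling, the promoters of these genes were searched for the letters that TCF and LEF factors bind, CTTTGAA or CTTTGAT on either strand. The RefSeq promoters used (GRCm38.p6, 250 bases before to 50 bases after the start) held 26 promoters of 23 members. CTTTGAA was present in 2 of the 26, against 5.14% of all 32851 promoters, and CTTTGAT in 0, against 3.73%. At least 1 of these motifs was thus present in 2 of the 26, against 8.65% of all promoters. Both matches belong to collagen-binding subunits, Itga1 (chr13:115101915-115102214, minus strand) and Itga10 (chr3:96645334-96645633, plus strand). Of these 2 genes 1 was lower and the other not past the test. The matches are descriptions of the letters and not of binding. They are shown in capitals, for Itga1 within bases 111 to 170 of the promoter and for Itga10 within bases 37 to 96.
Itga1 promoter: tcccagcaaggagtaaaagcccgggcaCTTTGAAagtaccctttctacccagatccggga
Itga10 promoter: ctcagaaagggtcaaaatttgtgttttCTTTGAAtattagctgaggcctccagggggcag

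Among the alpha subunits that bind RGD proteins, 2 of 4 were higher and 0 lower. Itga8, the nephronectin receptor of kidney mesenchyme and of smooth muscle precursors, had the largest rise of all members. It was at 13.57, 13.46, 13.65 and 13.62 in the control pools and at 14.20, 14.27, 14.23 and 14.17 in the treated pools. The groups were more than 0.5 apart at their nearest values, and the rise was 0.64 ± 0.12, or 1.56-fold (adjusted p = 0.000475). Npnt, the gene of its ligand nephronectin, was named for this pairing and was at 0.10 ± 0.15 (adjusted p = 0.0891). Of 6 nephron progenitor markers, which belong to the kidney, 5 were higher and 1 lower. Six2 was at 1.14 ± 0.27, Crym at -0.96 ± 0.45 and the other 4 at 0.16 to 0.39. Their summed intensity was between 11242 and 14125 in the control pools and between 12188 and 16069 in the treated pools. Their part in the rise of Itga8 was not tested.

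Itgav, the vitronectin receptor subunit that pairs with several beta subunits, had ratios of 0.10, 0.40, -0.11 and 0.33. Its mean of 0.18 ± 0.23 passed the test (adjusted p = 0.0322), but not in 3 of the 4 fits that left out 1 array: it was at 0.13 (adjusted p = 0.134) without array 1, 0.16 (adjusted p = 0.0998) without array 2 and 0.20 (adjusted p = 0.0553) without array 4. It was not past the test without the dye term either (adjusted p = 0.178). Its second probe was at 0.24 ± 0.13. Itga5, the fibronectin receptor, was at 0.00 with an interval from -0.10 to 0.10. Itga2b, the platelet subunit, was at 0.11 ± 0.11 and not past the test. Outside these classes, Itga4 and Itga9, which bind VCAM1 and fibronectin or tenascin, were both lower. Itga4 was at -0.33, -0.30, -0.85 and -0.54, with a mean of -0.50 ± 0.25 (adjusted p = 0.00733). Its second, intron-spanning probe was lower as well, at -0.50 ± 0.11. This probe was dim, with processed signals of 20 to 34 in the control and 10 to 18 in the treated pools. The background correction used here draws ratios of dim probes towards 0, so the sizes of the falls cannot be compared between the probes. Itga9 was at -0.13 ± 0.05 with an adjusted p = 0.049997, just inside the threshold, and it did not pass when any 1 array was left out (from -0.16 without array 1 to -0.10 without array 3, with adjusted p from 0.0697 to 0.209).

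Among the beta subunits, the rises of Itgb5 and Itgb3, which can both pair with Itgav, were the largest. Itgb5 was at 13.89, 14.08, 14.04 and 14.04 in the control pools and at 14.42, 14.64, 14.67 and 14.52 in the treated pools. No pool overlapped, and its rise was 0.55 ± 0.06, or 1.46-fold (adjusted p = 0.000349). Itgb3, the partner of both Itgav and Itga2b, rose by 0.48 ± 0.08 (adjusted p = 0.000669), at ratios of 0.50, 0.50, 0.56 and 0.36. A dimmer probe of Itgb3, above background in 3 of 4 control channels, was at 0.04 ± 0.07, and with the mean of both probes the gene was at 0.26 (adjusted p = 0.00455). Of 5 megakaryocyte markers, cells that carry the receptor of Itga2b and Itgb3, 1 passed the test, Pf4 at 0.56 ± 0.57. The ratios of Pf4 were 0.55, 0.46, 1.31 and -0.08 on arrays 1 to 4. The summed intensity of these markers was 326 to 721 in the control pools and 434 to 827 in the treated pools, and their part in the rise of Itgb3 was not tested. Itgb6 and Itgb8, further partners with which Itgav activates latent TGF-beta, were at 0.11 ± 0.11 and -0.09 ± 0.16 and not past the test.

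Itgb4, which pairs only with Itga6 and anchors epithelial cells in hemidesmosomes, rose by 0.37 ± 0.11 (adjusted p = 0.00288), with ratios from 0.29 to 0.53. Its control pools lay at 9.50 to 9.85 and its treated pools at 9.91 to 10.13. Itgb4 thus rose while the brightest probe of its only partner fell and the dimmer probe of that partner was at 0.01. Itgb1, the beta subunit shared by most alpha subunits, was called higher but followed the dye order: its ratios were -0.14 and -0.07 with the treated RNA in red and 0.42 and 0.34 with it in green. The mean of 0.14 ± 0.29 passed the test in the fit with a dye term (adjusted p = 0.0411) and not without that term (adjusted p = 0.366), nor without array 1 (0.16, adjusted p = 0.0783), array 2 (0.12, adjusted p = 0.166), array 3 (0.12, adjusted p = 0.163) or array 4 (0.16, adjusted p = 0.0753). With median centring in place of loess Itgb1 was at 0.07, also not past the test. The second probe of Itgb1 was at 0.10 ± 0.20. Across all genes tested, limma gave 0 genes with an adjusted p for the dye effect below the threshold, but 18.8% of all genes and 5 of the 35 members had an unadjusted one under 0.05. These members were Itgb1, Itgav, Itga7, Lama5 and Itgam, of which Itga7 and Lama5 had the same sign on all 4 arrays and passed the test without the dye term too.

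The leukocyte subunits Itgal and Itgb2 form 1 receptor of white blood cells and were both higher. Itgal rose by 0.30 ± 0.06 (adjusted p = 0.00319), with ratios of 0.26, 0.26, 0.38 and 0.28. Its further probes were at 0.20 ± 0.18 and at 0.00 ± 0.05, the latter below background in all control channels, and with the mean of the 3 probes the gene was at 0.16 (adjusted p = 0.0174). Itgb2 rose by 0.19 ± 0.08 (adjusted p = 0.0173), at 0.16, 0.16, 0.31 and 0.14, and was not past the test without array 2 (0.19, adjusted p = 0.0526) or without array 3 (0.15, adjusted p = 0.0824). With the authors' series table of fold changes it was at 0.32 and also not past the test (adjusted p = 0.0677). Of 7 macrophage markers 6 were higher, with a median of 0.29, while Csf1r was at -0.05. The summed intensity of these markers was 3924 to 6010 in the control pools and 4847 to 6945 in the treated pools. Their part in the rises of Itgal and Itgb2 was not tested. Itgam, Itgax and Itgb7, further subunits of white blood cells, were at 0.12, -0.03 and -0.13 and not past the test. The value of Itgam came from the probe with the CA repeat, whose processed signals were 6416 to 9406. The other probes of Itgam read far lower, at 15.5 to 26.3. Their ratios were 0.01 ± 0.05 and -0.09 ± 0.04, and with the mean of the 3 probes Itgam was at 0.01. Itgad, which entered the test through its treated channels, was at 0.13 and not past the test, with 0.05 (adjusted p = 0.531) without array 2 and 0.20 (adjusted p = 0.031) without array 4.

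**Figure D3:**
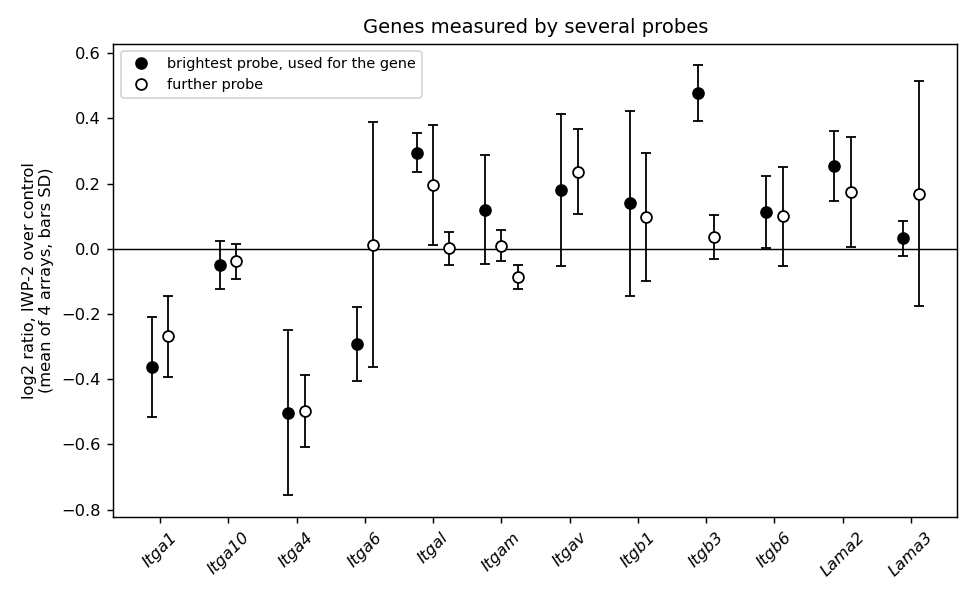
Mean log2 ratio of IWP-2 over control with the SD between the 4 arrays (vertical axis) for the 12 genes with several probes past the filter on background. The filled symbol is the brightest probe, whose value was used, and open symbols are further probes; those of Itga1, Itga4, Itga10, Itgav, Itgb1, Itgb6 and Lama2 lie within 0.1 of the used probe, while those of Itga6 and Itgb3 lie near 0.

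Genes of proteins that bind integrins or laminins were called in both directions. Of 15 other basement membrane genes, 10 were higher and 2 lower, with a median of 0.19. Frem2 and Fras1, whose products form a complex under embryonic epithelia, rose by 0.74 ± 0.14 (adjusted p = 0.000163) and 0.48 ± 0.31 (adjusted p = 0.00259), whereas Frem1, of the same complex, fell by 0.81 (SD 0.12, adjusted p = 0.000255). Nid2, a nidogen that links laminin to collagen IV, fell by 0.62 (SD 0.20, adjusted p = 0.00215), and the other nidogen, Nid1, was at -0.08 and not past the test. Hspg2, the gene of perlecan, was at 0.34 ± 0.30 with -0.10 on array 3 (adjusted p = 0.0473). The other higher genes of this list lay between 0.14 and 0.25.

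Of 15 further integrin ligands measured, 6 were lower and 3 higher. Vcam1, the cell surface ligand of Itga4, rose by 1.15 ± 0.19 (adjusted p = 4.27e-05), the largest rise of the list, while Itga4 itself fell. Fbln5, an elastic fibre protein that binds integrins, rose by 0.81 ± 0.16 (adjusted p = 0.000134). Postn (periostin), a ligand of integrins with Itgav, fell by 1.28 (SD 0.31, adjusted p = 0.000551), with ratios between -1.59 and -0.86. Thbs1 (thrombospondin) fell by 0.67, Egfl6 by 0.42, Ltbp1, which anchors latent TGF-beta, by 0.42, and Mfge8 by 0.31, with adjusted p between 0.000643 and 0.00511. Fn1, the gene of fibronectin, was at 0.16 ± 0.16 and not past the test (adjusted p = 0.0986). Vtn (vitronectin) was not above background.

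Inside the cell, adaptors join integrins to the cytoskeleton. Of 19 measured, 4 were higher, 1 was lower and 14 did not pass the test, and their values lay between -0.19 and 0.29. The higher genes were Tns1 at 0.29, Zyx at 0.17, Tln1 at 0.16 and Fermt3 at 0.16, and the lower one was Tln2 at -0.19. Among those not past the test, Ilk, Ptk2, Pxn and Vcl were between -0.09 and 0.01. Of 6 genes of hemidesmosomes and of the tetraspanin that binds laminin receptors, 2 were lower and 1 higher, all within 0.25 of 0. Together 29 of the 55 genes measured in these 4 lists passed the test, against 33.1% of all genes, and 19 did so without array 4.

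**Figure D4:**
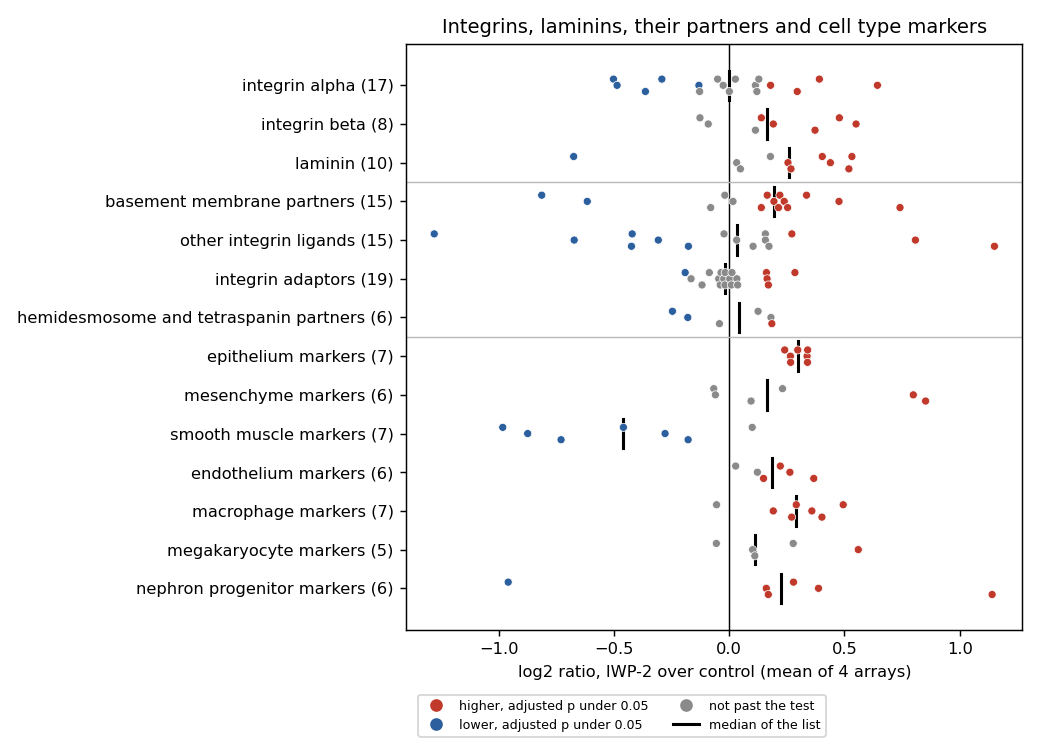
Mean log2 ratio of IWP-2 over control (horizontal axis) of each gene of the integrin and laminin classes, their partners and cell type markers, with 1 point per gene, coloured by the test, and a black bar at the median; the number of genes measured is in brackets. Laminins, basement membrane partners and epithelium markers have medians of 0.26, 0.19 and 0.30, smooth muscle markers one of -0.46, and the integrin adaptors lie close to 0.

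Other cell types of the explant were measured alongside. Of 6 endothelium markers 4 were higher, with a median of 0.19 and a summed intensity of 11949 to 16825 in the control pools and 13520 to 19284 in the treated pools. Of 6 mesenchyme markers 2 were higher, Pdgfrb at 0.80 and Twist1 at 0.85, and 4 did not pass. Of 6 markers of neural crest and glia 3 were higher and 0 lower. All measured markers of the epithelium, mesenchyme, smooth muscle, endothelium and nephron progenitors passed the filter on background. The part of the endothelium in the rise of Lama4 was not tested.

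The series as a whole had median raw intensities of 368 to 711 in the control and 385 to 694 in the treated channels over a local background of 28 to 77, and 0 saturated spots. Between pairs of arrays, Pearson r of the log2 ratios was 0.625 to 0.831 across all genes and 0.737 to 0.913 across the 35 members. Genes are not independent replicates.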

How the data were processed

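Labelled cRNA of 4 treated and 4 control pools was hybridised to 4 two-colour Agilent arrays. Spot intensities were read from the scans with Agilent Feature Extraction 10.7.3.1. The authors deposited, for each spot, raw and background intensity and the log10 ratio of red over green. They also deposited a processed intensity (background-subtracted and dye-normalised, per the file headers). Flags for spots above background, saturated or outlying are other columns of the deposited files. A deposited series table gives a rounded signed fold change, treated here as a score because its normalisation is not given in the sources used here; it followed the treated over control processed signals (r of 0.987 to 0.992) and served as an alternative.

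Raw intensities were corrected with normexp (offset 50, all spots) and normalised by loess (span 0.3) in limma 3.58.1 (R 4.3.3). The offset draws ratios of dim probes towards 0. Control and outlier spots (3.01% to 3.38%) were left out, spots of a probe were averaged and the brightest probe stood for its gene. For a channel to count as above background, a share over 0.5 of a probe's spots had to be. The number of arrays limits the precision. Ratios were fitted with lmFit and eBayes with a dye term. Intensities of single pools are values after loess and Aquantile normalisation. Summed marker intensities are processed signals, not normalised between arrays. The procedure was tested on simulated data.

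The members, the adhesion and marker lists and the tests were chosen with earlier results of these data known. All members described are named, and of the adhesion lists the genes past the test with a change of at least 0.3. Named outside this rule are Npnt, Nid1, Fn1, Vtn, Ilk, Ptk2, Pxn, Vcl, Tns1, Zyx, Tln1, Fermt3 and Tln2. Gene names are those of the array design, and all 36 match a RefSeq symbol. A gene that fits the names is not reported here and is left out of the members' counts. The alternatives were other background correction, normalisation, scaling, filters, probe rules, no dye term, the series table, and leaving out each array.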

Additional observations from a re-analysis of the deposited data

Results flagged for a closer look

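In 38 values examined for an array that lay far from the other 3, 2 did so, where chance gives about 1 in 20, or 1.9. Itgal was at 0.38 on array 3 against 0.26 to 0.28 on the others. Itgb2, which forms a receptor with it, was at 0.31 on array 3 against 0.14 to 0.16. Both are genes of white blood cells. The macrophage markers had a median of 0.25 on array 3, against 0.40, 0.30 and 0.22 on arrays 1, 2 and 4.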

How the results depend on the processing

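With 14 alternatives, no called member changed sign. Of 289 refitted values of the 21 called members, 254 kept their call and 35 lost it. The call was kept throughout by 11 members: Itga1, Itga3, Itga7, Itga8, Itgal, Itgb3, Itgb5, Lama1, Lama4, Lamb1 and Lamc3. Itga1, Itga3, Itga7, Itgal and Itgb2 were too dim for the setting with a signal over 100, so each had 13 alternatives. Itgb1 lost its call in 10 alternatives, Itga9 in 9, Itgav in 6, Itgb2 in 3 and Itga6 in 2. With the series table, whose values are rounded, 9 members were higher and 3 lower, with 1833 higher and 2050 lower of all genes and 10 called genes in the adhesion lists; Itga4, Itgb4, Lama2, Lama5 and Lamb3 lost their call there alone, and Lama3 gained one at 0.07. The adhesion lists, with 29 called genes, had 18 with median centring, 19 without the dye term and 19 (without array 4) to 23 when 1 array was left out. All genes lower numbered 2177 (without array 3) to 2811 when 1 array was left out. The median of the members was 0.16 with processed signals and 0.18 with a signal over 100. The causes were not tested. Slide and scan could not be fitted as a block, because all arrays share 1 slide and 1 scan. Each ratio pairs the pools of 1 array, so the fit is itself paired. With dim probes such as those of Itgad, Itgax and Itga2, signal close to background limits the precision.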
